A study of Mus musculus with 4 samples.

Results

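Antimicrobial and acute-phase proteins made by the gut lining were followed through cells of mouse colon tumours. The set holds 10 genes, chosen by name from the 31053 genes of the count matrix: the C-type lectins Reg3b, Reg3g and Reg4, the lysozyme Lyz1, the mucosal pentraxin Mptx1, the surface and mucus proteins Lypd8, Zg16 and Retnlb, and the serum amyloid A proteins Saa1 and Saa3. They had been picked with their levels in these cells in view, so their levels are a description and carry no test. All 10 genes were found in the matrix, and each is counted below.

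The mice were female C57BL/6 animals with polyps of the colon. All received the carcinogen AOM at 12.5 mg/kg and then DSS, which injures the colon lining, in 3 cycles (2.5%, with 2% in the last), and polyps were taken 30 days later. Digested polyps were sorted on antibodies to CD45, a surface protein of blood-derived cells, and EPCAM, one of epithelial cells. The labels name 4 samples of 1 library each: CD45+ cells of Egfr fl/fl mice, CD45+ cells of EgfrΔMYL mice, which lack the growth factor receptor EGFR in the myeloid lineage, and CD45- cells of each genotype. The driver of the deletion, the age of the animals and their number per sample are not given in the sources used here. The counts came as 1 matrix of 18026 barcodes (droplets that may each hold a cell), which carry 4 different suffixes, and the sources used here do not say which suffix belongs to which sample. Genotypes and sorts were therefore not compared. Barcodes with the same suffix are called a library, each library's value stands alone, and no p-value was computed for 1 pooled matrix.

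The gut lining defends itself by secretion. Goblet cells release mucus together with small proteins that bind bacteria. Paneth cells, a secretory type of the small intestine, release lysozyme and defensins, and similar cells can arise in the inflamed or neoplastic colon. REG3 lectins and RETNLB act on bacteria near the surface, ZG16 binds the walls of Gram-positive bacteria, LYPD8 binds flagella, and serum amyloid A proteins carry retinol and lipid and rise in the acute phase. The cytokine IL-22, made by lymphoid cells and read by an epithelial receptor through STAT3, is a known inducer of REG3 genes.

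After filtering, 14188 cells were kept, 594, 1699, 4514 and 7381 in libraries 1 to 4. Of these, 1460 (10.3%) were epithelial-like by their markers, 324 in library 1, 1096 in library 2, 12 in library 3 and 28 in library 4. Their clusters held Epcam at 2106 to 3491 CPM (UMIs, that is tagged molecules, per 1000000 UMIs of the summed cells) and Ptprc, which encodes CD45, at 0 to 11.7 CPM. Named immune cells numbered 10010, of which 130 and 347 lay in libraries 1 and 2. The filter removed 59.0% and 56.3% of the barcodes of libraries 1 and 2 against 8.75% and 4.45% of libraries 3 and 4. Library 1 stood apart by haemoglobin, which took 8.90% of its UMIs and at most 0.984% in the others. The 4 libraries shared 24 barcode sequences.

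Both pairs of neighbouring genes are shown here by the DNA before their start sites, because Reg3b and Reg3g were found in overlapping subsets of cells and Saa1 and Saa3 in different ones. Reg3b (ENSMUSG00000071356, mm10 chr6:78370657-78373466, + strand) and Reg3g (ENSMUSG00000030017, chr6:78466269-78468872, − strand) lie 92.8 kb apart. Saa3 (ENSMUSG00000040026, chr7:46711998-46715700) and Saa1 (ENSMUSG00000074115, chr7:46740497-46742980) lie 24.8 kb apart, both on the − strand. The stretches are from RefSeq on GRCm38.p6, the build that mm10 names, read 5′ to 3′ on the gene's strand up to its RefSeq start, with bases of annotated exons left out. Capitals mark matches, on either strand, to the STAT motif TTCNNNGAA, the C/EBP motif TTGCNNAA and the TATA box TATAAA. Reg3b is shown over chr6:78370707-78370861, Reg3g over chr6:78468875-78469124, Saa1 over chr7:46742981-46743230 and Saa3 over chr7:46715701-46715926.
Reg3b: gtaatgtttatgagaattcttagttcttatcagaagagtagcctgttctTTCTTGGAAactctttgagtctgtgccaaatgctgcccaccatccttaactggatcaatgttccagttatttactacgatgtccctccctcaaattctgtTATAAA
Reg3g: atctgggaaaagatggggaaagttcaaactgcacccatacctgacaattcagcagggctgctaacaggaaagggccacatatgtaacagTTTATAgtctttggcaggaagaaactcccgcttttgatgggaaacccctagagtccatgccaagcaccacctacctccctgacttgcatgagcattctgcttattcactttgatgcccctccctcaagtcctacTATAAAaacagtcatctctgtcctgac
Saa1: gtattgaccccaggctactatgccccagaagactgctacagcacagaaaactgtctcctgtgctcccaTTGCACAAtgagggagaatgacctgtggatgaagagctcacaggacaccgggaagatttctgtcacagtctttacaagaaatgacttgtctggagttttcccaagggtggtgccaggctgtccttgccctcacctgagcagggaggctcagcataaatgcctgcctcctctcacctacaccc
Saa3: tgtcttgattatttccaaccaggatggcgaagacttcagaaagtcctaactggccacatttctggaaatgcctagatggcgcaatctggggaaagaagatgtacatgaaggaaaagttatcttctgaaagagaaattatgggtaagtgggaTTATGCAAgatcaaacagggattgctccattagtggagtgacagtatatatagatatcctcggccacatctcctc
The Reg3b stretch held a STAT match at −129 and a TATA match at −29, counted from the start site. The Reg3g stretch held no STAT match and TATA matches at −161, on the opposite strand, and at −27. Aligned over 243 bases, the 250 bases before the starts of Reg3b and Reg3g were 72.8% identical, and those of Saa1 and Saa3 75.1% identical over 205 aligned bases. Saa1 held a C/EBP match at −182 and Saa3 at −99. Of 32851 RefSeq mouse promoters of the same length, 7.02% held the STAT motif, 9.56% the C/EBP motif and 12.4% the TATA motif, so the letters are common and a match is a description only. RefSeq promoters matched 8 of the 10 genes, and Zg16 and Retnlb had no entry.

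The other genes lie on separate chromosomes or far apart. Reg4 (ENSMUSG00000027876) is at chr3:98222156-98236748 (+), Lyz1 (ENSMUSG00000069515) at chr10:117287797-117292868 (−) and Mptx1 (ENSMUSG00000026531) at chr1:174330518-174332873 (+). Lypd8 (ENSMUSG00000013643) is at chr11:58379043-58390728 (+), Zg16 (ENSMUSG00000049350) at chr7:127050156-127087328 (−) and Retnlb (ENSMUSG00000022650) at chr16:48816856-48818892 (+), all on mm10 in GENCODE vM21. Counting near the 3′ end can confuse close copies: over the aligned part of the last 300 transcript bases Lyz1 and Lyz2 were 96.9% identical with a shared run of 104 bases, Saa1 and Saa2 94.3% (73 bases), Mptx1 and Mptx2 90.8% (30 bases), Retnlb and Retnlg 82.6% (26 bases), and Reg3b and Reg3g 72.5% (17 bases). Levels of such pairs are uncertain to the extent that reads were split between them.

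In these tumours 8 of the 10 genes were counted mostly in epithelial-like cells, Zg16 there and in an unnamed cluster, and Saa3 mostly in clusters led by myeloid genes. Epithelial-like cells held between 87.9% (Retnlb) and 98.8% (Mptx1) of all UMIs of 8 of the genes. The exceptions were Zg16, with 37.6%, and Saa3, with 13 of 6108 UMIs (0.213%). For Saa3 the data thus go against the name epithelial.

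Set against named immune cells, 9 of the 10 genes had a level in epithelial-like cells at least 2-fold above the immune level, as did 38.4% of 16641 genes counted, and Saa3 lay at least 2-fold below it, as did 21.1% of genes. The median log2 ratio of the 10 genes was 7.59, and that of all genes counted was 0.61. Because the genes were chosen for this pattern, nothing further is read from these counts. With all cells counted Mptx1 had the highest ratio, 719 CPM against 0.317, a log2 ratio of 11.15 (95% interval 10.58 to 11.79, for counting error only). That place rested on 1 cell: without it the Mptx1 log2 ratio was 9.09, under that of Reg3g, and without library 1 it was 7.46. Reg3g stood at 513 against 0.739 CPM (log2 ratio 9.44, 9.06 to 9.85) and Reg3b at 121 against 0.554 CPM (7.77, 7.33 to 8.24). Saa3 stood at 0.826 against 17.4 CPM (−4.40, −5.31 to −3.62).

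**Figure D1:**
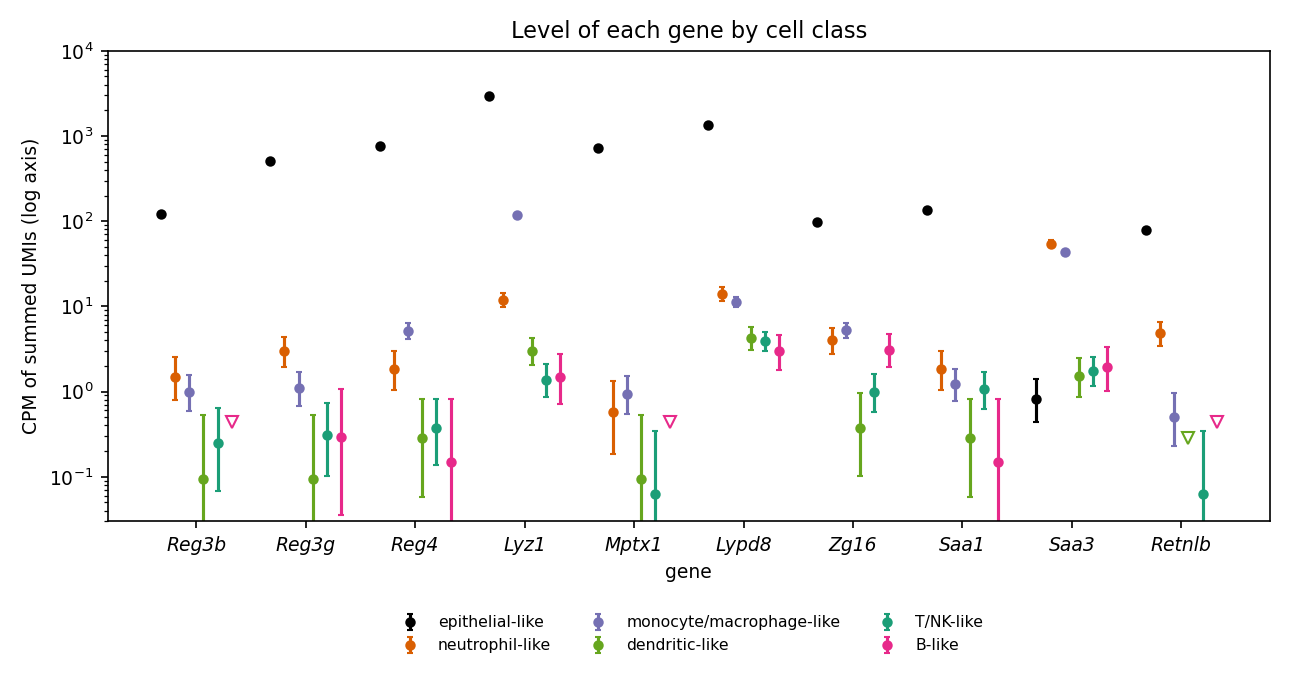
Level of the 10 genes in 6 cell classes, as CPM of summed UMIs on a log axis, with exact 95% Poisson intervals; a triangle marks the level that 3 UMIs would give where none was seen. Saa3 is the one gene whose epithelial-like point (0.826 CPM) lies below its neutrophil-like (54.4 CPM) and monocyte/macrophage-like (42.9 CPM) points.

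Epithelial-like cells were divided into 12 subsets, clustered without the 10 genes and called by their leading genes. Where a gene was read as higher, it had at least 10 UMIs in the subset and a level at least 2-fold that in all other epithelial-like cells. A subset of 128 cells led by Spink4, Sval1 and Ang4 scored for both goblet markers (4.95 on the log2 scale) and Paneth-type secretory markers (4.47), and 36 of its cells lay in library 1 and 90 in library 2. It held 7 of the 10 genes at a higher level (6.16% of all genes counted were higher there): Reg3b, Reg3g, Reg4, Lyz1, Mptx1, Zg16 and Retnlb. Within library 1 alone and within library 2 alone the number was 7 as well. With each gene's richest Spink4/Sval1 cell left out it was 6 in library 1 and 7 in library 2: in library 1 a single cell held 256 of the 266 Zg16 UMIs, and without it Zg16 stood at 10.5 CPM, below the 36.3 CPM of other epithelial-like cells. With the libraries summed, Reg3b passed only narrowly, at 2.11-fold. Without its richest Spink4/Sval1 cell the summed Reg3b level was 197 against 104.9 CPM, under the 2-fold limit. The subset led by Ubd and Ifit1bl1 (98 cells) held 3 at a higher level (Lypd8, Zg16 and Saa1; background 4.31%), that led by Emp1 and Car4 (141 cells) 2 (Lypd8 and Saa1; 9.72%), and that led by Gsdmc4 and Muc3 (112 cells) 1 (Lypd8; 5.5%). For Zg16 in Ubd/Ifit1bl1 cells the direction differed between libraries 1 and 2, as given below.

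**Figure D2:**
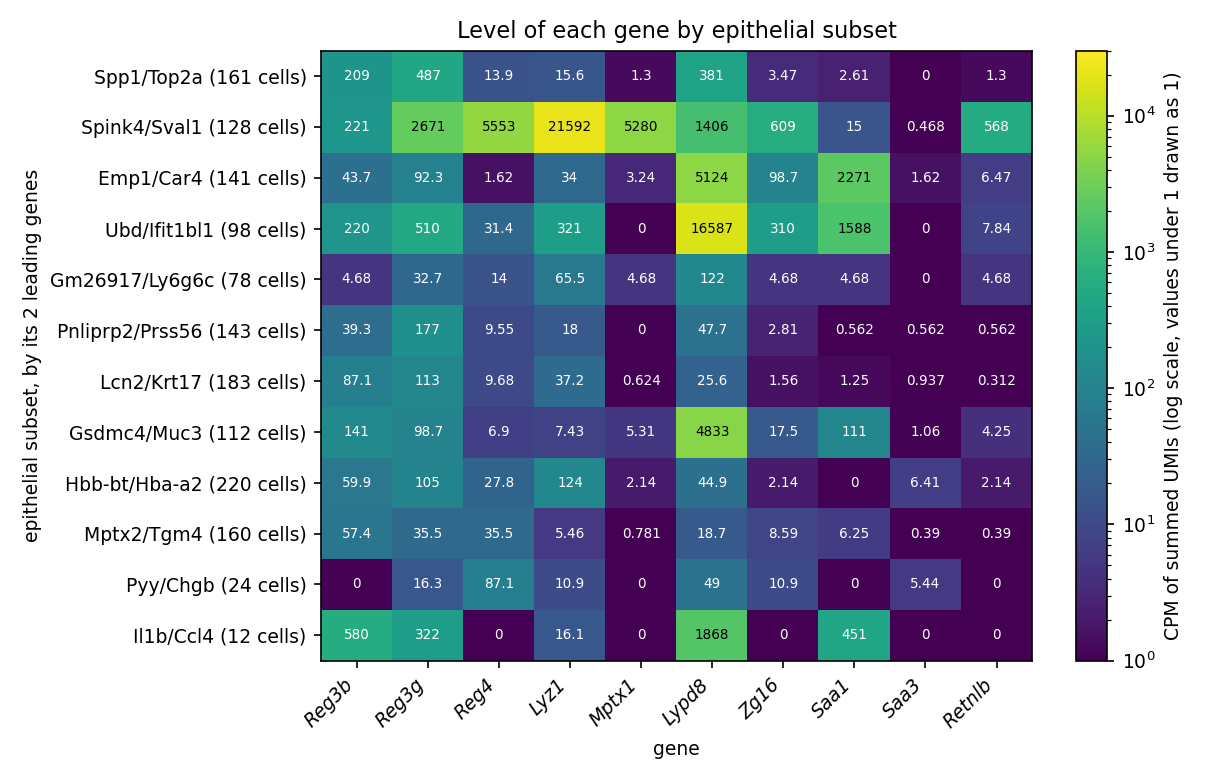
Level of each gene (columns) in each of the 12 epithelial-like subsets (rows), as CPM of summed UMIs on a log colour scale. Brighter colours mark higher levels. Reg4, Lyz1, Mptx1 and Retnlb are brightest in the Spink4/Sval1 row, Lypd8 is brightest in the Ubd/Ifit1bl1 row (16587 CPM), and Saa1 in the Emp1/Car4 row (2271 CPM).

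Another 12 cells, led by Il1b and Ccl4 and scoring for macrophage markers (4.84) and about as high for neutrophil markers (4.75), carried 2 of the genes at a higher level, Reg3b at 579.8 CPM and Saa1 at 451 CPM (background 3.37%). A single cell held 67 of their 72 Reg3b UMIs, and without it the level was 47.4 CPM. In the remaining 7 subsets 0 of the 10 genes were higher. Saa3, with at most 3 UMIs in any subset, could not be called: it stood at 6.41 CPM in Hbb-bt/Hba-a2 cells from 3 UMIs and at 5.44 CPM in Pyy/Chgb cells from 1 UMI. The background was 3.95% in Spp1/Top2a cells, which are led by division genes, 4.25% in Pnliprp2/Prss56, 5.02% in Lcn2/Krt17, 4.89% in Mptx2/Tgm4, 8.35% in Gm26917/Ly6g6c and 6.73% in Hbb-bt/Hba-a2 cells, and 7.51% in Pyy/Chgb cells, which scored for enteroendocrine markers (7.71).

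The lectins differed in how widely they spread. Reg4, a lectin of secretory gut cells, had 98.1% of its epithelial UMIs in the Spink4/Sval1 cells, at 5553 CPM against 16.6 CPM in other epithelial-like cells. In library 1 the Spink4/Sval1 level of Reg4 was 6635 CPM and in library 2 it was 4718 CPM. After thinning each cell to 1000 UMIs, 80.2% of 121 such cells held a Reg4 UMI. The enteroendocrine-like Pyy/Chgb cells came next, at 87.1 CPM (49.8 to 141), from 16 UMIs in 3 of 24 cells. The Mptx2/Tgm4 cells followed at 35.5 CPM (28.6 to 43.6), from 91 UMIs in 30 cells.

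Reg3g, which kills Gram-positive bacteria, was also highest in Spink4/Sval1 cells, at 2671 CPM (2389 in library 1, 2941 in library 2), but 29.3% of its epithelial UMIs lay elsewhere. The Spp1/Top2a cells held 13.9% of them, at 487 CPM, which does not differ beyond counting error from the 509.6 CPM of Ubd/Ifit1bl1 cells (426 to 605). The level in Spp1/Top2a cells was 279 CPM in library 1 and 592 CPM in library 2. Reg3g thus stood 15.4-fold higher in Spink4/Sval1 cells than in other epithelial-like cells, where Reg4 stood 335-fold higher.

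Reg3b, its neighbour and close relative, had the smallest excess of the lectins in Spink4/Sval1 cells, 2.11-fold over other epithelial-like cells. By cells it was not the most widespread: 156 epithelial-like cells held it, against 346 for Reg3g and 207 for Reg4. The Spink4/Sval1 cells held 221 CPM (202 to 242), the Ubd/Ifit1bl1 cells 219.5 CPM (166 to 285) and the Spp1/Top2a cells 209 CPM (191 to 228), and these 3 levels did not differ beyond counting error. Single cells carried part of that: 48 of the 56 Reg3b UMIs of Ubd/Ifit1bl1 cells and 194 of the 265 of Gsdmc4/Muc3 cells came from 1 cell each. Without each subset's richest cell the Reg3b level was 197 CPM in Spink4/Sval1, 148 in Spp1/Top2a, 49.2 in Lcn2/Krt17, 40.0 in Gsdmc4/Muc3 and 31.9 in Ubd/Ifit1bl1 cells. By library, all epithelial-like cells held Reg3b at 49.96, 131, 201 and 766 CPM in libraries 1 to 4, the last from 241 UMIs in 28 cells. A single cell, of the Gsdmc4/Muc3 subset, held 194 of those 241, and without it library 4 stood at 230 CPM. That cell held 110403 UMIs in all, against a median of 2704 in the 28 cells. In library 3, 1 cell held 5 of the 6 UMIs.

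Lyz1, the lysozyme of Paneth cells, reached 21592 CPM in Spink4/Sval1 cells (22881 in library 1, 20787 in library 2) against 29.0 CPM in other epithelial-like cells, a ratio of 745-fold. Its near copy Lyz2, the lysozyme of myeloid cells, had 74 UMIs there beside the 46168 of Lyz1. Mptx1, a pentraxin of the gut mucosa, stood at 5280.1 CPM in the same subset and at 1.55 CPM elsewhere, 3418-fold apart. That level rested on few cells: 8617 of 11290 UMIs came from 1 cell of library 1, and without it the subset held 1289 CPM. Library 1 held Mptx1 at 10943 CPM in these cells and library 2 at 608 CPM, and both were above their other epithelial-like cells (2.57 and 1.23 CPM).

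Mptx1 and its near copy Mptx2 were highest in different subsets. The Mptx2/Tgm4 subset, 160 cells of which 157 were from library 2, held 2228 UMIs of Mptx2 and 2 of Mptx1. The Spink4/Sval1 cells held 315 UMIs of Mptx2 beside their 11290 of Mptx1, and 300 of the 315 lay in 1 cell without Mptx1. Of the 1460 epithelial-like cells, 35 held Mptx1 alone, 94 Mptx2 alone and 4 both. The cell richest in Mptx1 held 8617 UMIs of it, 13.3% of its 64691 UMIs, with 2 of Mptx2. It also held 451 UMIs of Reg4, 83 of Retnlb, 72 of Lypd8 and 18 of Lyz1, and none of Reg3b, Reg3g or Zg16.

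Retnlb, a resistin-like protein of goblet cells, had 1215 of 1237 epithelial UMIs in Spink4/Sval1 cells, at 568 CPM (459 in library 1, 667 in library 2) against 1.62 CPM elsewhere. Zg16, a lectin-like mucus protein, stood at 609 CPM in those cells (275 in library 1, 889 in library 2), and at 309.7 CPM in Ubd/Ifit1bl1 cells (561 in library 1, 32.0 in library 2). All epithelial-like cells held Zg16 at 88.0 CPM in library 1 and 101 CPM in library 2. The Ubd/Ifit1bl1 level was thus above in library 1 and below in library 2. The 3 cells richest in Zg16, all of the Spink4/Sval1 subset, held 766, 256 and 176 of its 1519 epithelial UMIs. The Spink4/Sval1 level was 252 CPM without the richest and 49.5 CPM without all 3, against 16.0 CPM in other epithelial-like cells.

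Lypd8, the membrane-anchored protein of the upper crypt that binds flagella, followed another order from the secretory genes. It was highest in Ubd/Ifit1bl1 cells, at 16587 CPM (15825 in library 1, 17906 in library 2), then in Emp1/Car4 cells at 5124 CPM (5525 and 4324) and Gsdmc4/Muc3 cells at 4833 CPM (4413 and 4976). After thinning, 93.5% of Ubd/Ifit1bl1 cells, 88.0% of Emp1/Car4 cells and 76.5% of Gsdmc4/Muc3 cells held a Lypd8 UMI. Ubd/Ifit1bl1 cells scored 2.73 on a list of regenerative markers and next on erythroid markers (1.78). Emp1/Car4 cells scored highest on erythroid markers (2.73), then 2.53 on the regenerative and 2.42 on the absorptive colonocyte list. Both are shallow and are called here by their leading genes. In Spink4/Sval1 cells Lypd8 stood at 1406 CPM, 1.07-fold the level of other epithelial-like cells, and the direction differed between libraries: 1515 against 2467 CPM in library 1 and 1326 against 805 CPM in library 2.

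Saa1, the serum amyloid A protein of liver and inflamed gut, was highest in 2 of the subsets that were highest for Lypd8 and was low in Spink4/Sval1 cells. Emp1/Car4 cells held it at 2271 CPM (2646 in library 1, 1522 in library 2), 46.9-fold the level of other epithelial-like cells, and Ubd/Ifit1bl1 cells at 1588 CPM (2537 and 848). Gsdmc4/Muc3 cells, which shared the Lypd8 signal, held Saa1 at 111 CPM. In Spink4/Sval1 cells Saa1 stood at 14.97 CPM from 32 UMIs, below the 155 CPM of other epithelial-like cells. After thinning, 51.3% of Emp1/Car4 cells and 29.0% of Ubd/Ifit1bl1 cells held a Saa1 UMI against 4.13% of Spink4/Sval1 cells. Haemoglobin took 1.54% and 1.24% of UMIs per cell in Emp1/Car4 and Ubd/Ifit1bl1 cells, whose median depths were 1995 and 1352 UMIs against 13815 in Spink4/Sval1 cells, and the part of depth and free red-cell RNA in these levels was not tested.

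At a finer clustering (Leiden resolution 2, with 1464 epithelial-like cells in 23 subsets) the secretory cells fell into separate subsets, and the genes fell with them. This view was among the alternatives set for clustering, and the choice to describe it was made after its values were seen. A subset of 84 cells led by Ang4, Defa24 and Defa17 scored 4.54 for Paneth-type markers and 2.59 for goblet markers, and a subset of 27 cells led by Nov, Klk1 and Hsd11b2 scored 3.64 for goblet markers and −2.63 for Paneth-type markers. Of all genes counted, 19.9% were at least 2-fold higher in Ang4/Defa24 cells and 4.98% in Nov/Klk1 cells. Lyz1, Reg3b and Reg3g were among the former, Mptx1 and Zg16 among the latter, and Reg4, Lypd8 and Retnlb lay within 2-fold.

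Lyz1 stood at 28853 CPM in Ang4/Defa24 cells and 341 CPM in Nov/Klk1 cells, 84.5-fold apart (73.0 to 98.5), and the ratio was 81.3-fold in library 1 and 101.7-fold in library 2. A Lyz1 UMI was seen in 74 of 84 cells against 8 of 27. Reg3b stood at 299.6 against 5.75 CPM, the latter from 3 UMIs of 1 cell, a ratio of 52.1-fold with an interval from 17.7 to 253. Reg3g was 4.94-fold apart, at 3408 against 690.5 CPM, and 3 of the 27 Nov/Klk1 cells held all 360 of its UMIs there. The defining peptide of the subset, Ang4, an angiogenin of Paneth cells, stood at 4058 against 3.84 CPM.

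At this clustering the goblet-type cells carried the reverse pair. With a stricter mitochondrial limit Zg16 also stood high in a subset that scored for Paneth-type markers, as given in the closing section. Zg16 stood at 2384 CPM in Nov/Klk1 cells, with a UMI in 11 of 27 cells, while 84 Ang4/Defa24 cells together held 1 Zg16 UMI. A single Nov/Klk1 cell held 766 of those UMIs, and the level without it was 933 CPM. In library 1 a single cell held 256 of the 260 Zg16 UMIs of these cells, and the level there without it was 14.4 CPM. Mptx1 stood at 21084 against 176 CPM, 119.8-fold apart, and 16 of 27 cells held a UMI against 8 of 84. Without the richest cell of each subset Mptx1 stood at 5202 against 46.6 CPM. The ratio differed between the libraries, 2148-fold in library 1 and 6.54-fold in library 2. The mucin Muc2 was 4.99-fold higher in Nov/Klk1 cells, 9659 against 1935 CPM.

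Reg4, Lypd8 and Retnlb were shared by both kinds of secretory cell. Reg4 was 1.37-fold higher in Nov/Klk1 cells (7081 against 5185 CPM), and 81 of 84 and 26 of 27 cells held it. Lypd8 was 1.86-fold higher there (1.18-fold in library 1, 2.86-fold in library 2). Retnlb stood at 599.8 CPM in Ang4/Defa24 and 526 CPM in Nov/Klk1 cells, a ratio of 1.14 whose interval (0.997 to 1.31) spans no difference, and the ratio was 0.825 in library 1 and 1.38 in library 2. A further 18 shallow cells led by Clca1 and Fcgbp (median 1304 UMIs) held Zg16 at 1421 CPM from 61 UMIs and no Reg3b or Retnlb UMI, where 3 UMIs would be 69.9 CPM.

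**Figure D3:**
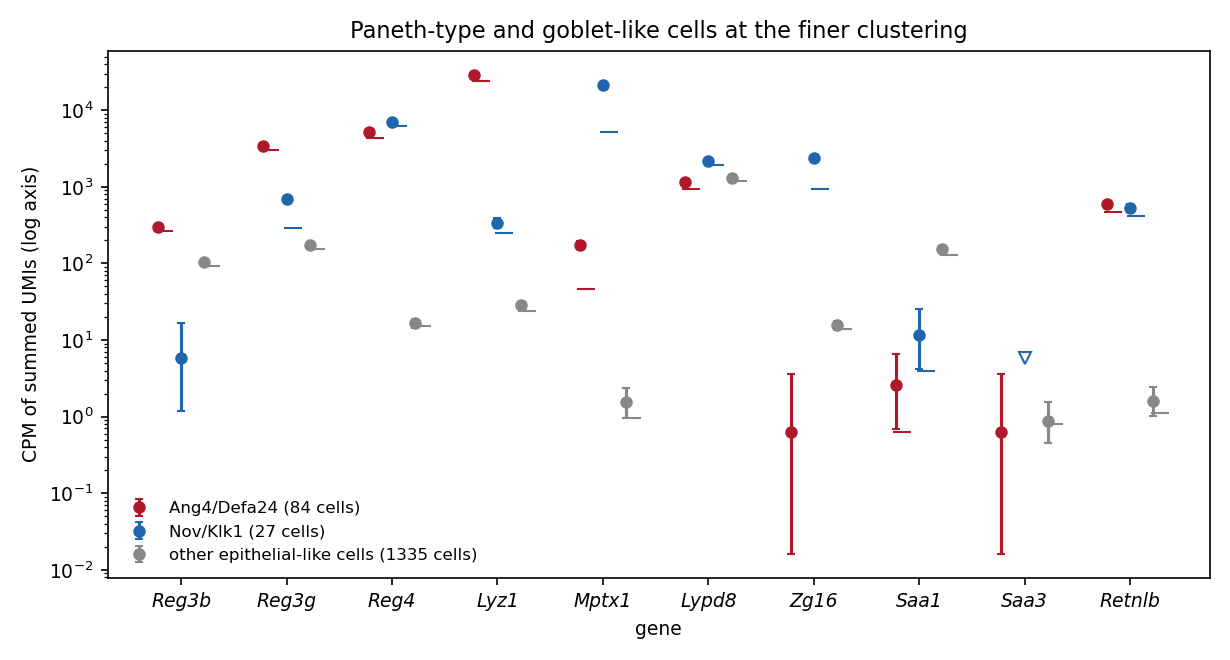
Level of each gene in Ang4/Defa24 cells (red, 84 cells), Nov/Klk1 cells (blue, 27 cells) and the other 1335 epithelial-like cells (grey, without 18 Clca1/Fcgbp cells), as CPM on a log axis with exact 95% Poisson intervals; short dashes give the level without the richest cell and open triangles the limit where no UMI was seen. Lyz1, Reg3b and Reg3g are higher in red, Mptx1 and Zg16 in blue, with and without the richest cell.

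The division can also be described cell by cell. These are largely the same cells that the finer clustering divided, so the counts restate the division and are no separate support for it. Among 121 Spink4/Sval1 cells thinned to 1000 UMIs, 68 held a Lyz1 UMI without Zg16, 10 held Zg16 without Lyz1 and 0 held both. Reg4 and Lyz1 were seen together in 58 cells, and Reg3g and Lyz1 in 36. Over these cells Spearman's rho was 0.41 for Lyz1 with Reg4, 0.41 for Lyz1 with Reg3g, 0.34 for Lypd8 with Zg16, 0.33 for Reg3b with Reg3g and −0.30 for Lyz1 with Zg16, as a description of sparse counts from cells that share 4 libraries.

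Few cells held much of the UMIs of the 9 epithelial genes of the set, though Lypd8 was seen in 687 of 1460 cells. For Mptx1 and Zg16 1 cell held over 50% of the epithelial UMIs (76.2% and 50.4%), for Retnlb 4 cells reached 50%, for Lyz1 8, for Saa1 12 and for Reg3b, Reg3g and Reg4 13 each. Lypd8 was the most even, with 35 cells for 50% and 7.81% in its richest cell. The largest count of any gene of the set in a cell was 8746 UMIs of Lyz1, in library 1. That cell held 65935 UMIs in all, against a median of 6458 in epithelial-like cells. A cell of that same depth in library 1 was also richest in Reg3g and Reg4. The cell richest in Reg3b held 110403 UMIs in all. The part of depth in this concentration was not tested. Leaving out each gene's richest cell, the epithelial level of Mptx1 was 172 CPM in place of 719, that of Zg16 47.9 in place of 96.6, while Lyz1 fell from 2959.6 to 2414 CPM and Lypd8 from 1328 to 1228 CPM.

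**Figure D4:**
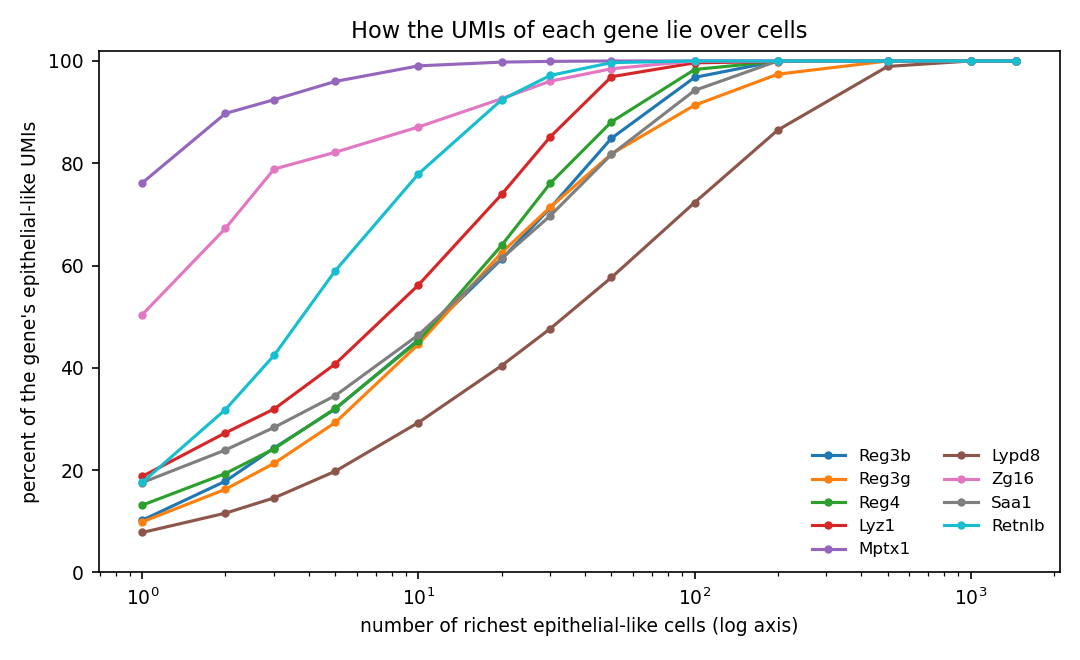
Cumulative percent of each gene's epithelial-like UMIs against the number of richest cells counted (log axis), for 9 genes. The Mptx1 curve starts at 76.2% with 1 cell and Zg16 at 50.4%, while the Lypd8 curve lies lowest and reaches 29.3% with 10 cells.

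A large share of Zg16 lay outside the named epithelial-like cells. An unnamed cluster of 332 cells with Epcam at 745 CPM, whose highest score was epithelial (1.18, under the limit of 1.5), held 2298 of 4040 Zg16 UMIs. A barcode of this cluster, in library 2, held 1900 of them among 9293 UMIs. That barcode also held 594 UMIs of Spink4, 314 of the trefoil factor Tff3, 175 of Agr2, 72 of Lypd8, 57 of Retnlb and 42 of Reg4, no Muc2, and no mitochondrial UMI. Without it the cluster held Zg16 at 225 CPM.

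Immune barcodes give a measure of how much epithelial RNA was free in the droplets. The level of each gene in named immune cells was expressed as a percent of its level in epithelial-like cells, and the same was done for 20 epithelial genes outside the set, such as Epcam, Krt8 and Cldn3. Over the 10 genes the median was 0.521%, and without Saa3 and Lyz1, whose myeloid counts are given apart, it was 0.458%, from 0.0440% (Mptx1) to 2.36% (Zg16). The 20 reference genes had a median of 0.285%, from 0.0828% (Cldn3) to 3.07% (Fabp2). Reg3b at 0.459%, Reg3g at 0.144%, Reg4 at 0.209%, Lypd8 at 0.458%, Saa1 at 0.583% and Retnlb at 0.872% all lay within that range. Mptx1 lay below it, and Zg16 lay in its upper part. The top of the range, Fabp2, rested on only 12 immune UMIs.

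Part of the immune signal sat in a few barcodes. With barcodes of 10 or more UMIs of the gene left out, the median was 0.337% for the 10 genes and 0.266% for the reference genes. By library the medians were 1.29% against 1.01% in library 1, 1.49% against 2.07% in library 2, 0.236% against 0.185% in library 3 and 0.415% against 0.260% in library 4. Libraries 1 and 2, which held the epithelial-like cells, were thus higher for both groups of genes, from 130 and 347 immune cells. As shares of cells, a Lypd8 UMI was seen in 2.46% of immune cells and 47.1% of epithelial-like cells (0.550% and 29.1% after thinning), with median depths of 4472 and 6458 UMIs.

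**Figure D5:**
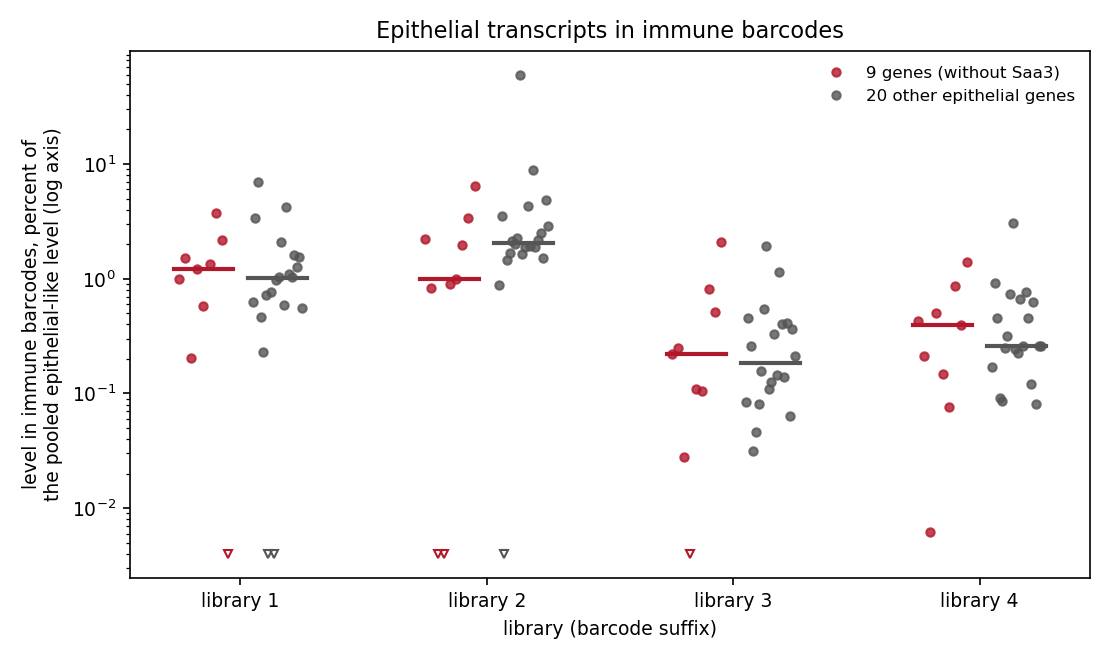
Level in immune cells as a percent of the pooled epithelial-like level (log axis), by library, for 9 of the genes without Saa3 and for 20 epithelial reference genes, with barcodes of 10 or more UMIs of a gene left out; bars are medians and triangles at the bottom mark 0 UMIs. Libraries 1 and 2 lie above libraries 3 and 4 for both groups of genes.

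Retnlb in neutrophil-like cells was high relative to Reg4. These cells held 42 Retnlb UMIs in 38 barcodes (4.81 CPM), of which none held more than 2, beside 16 UMIs of Reg4 and 122 of Lypd8. In epithelial-like cells Retnlb amounted to 10.2% of Reg4, in monocyte/macrophage-like cells to 9.68% (9 against 93 UMIs) and in neutrophil-like cells to 262% (42 against 16). Against Lypd8 it amounted to 5.92% in epithelial-like, 4.43% in monocyte/macrophage-like, 34.4% in neutrophil-like and 40.4% in Spink4/Sval1 cells. The level was 4.70 CPM in library 3 and 4.92 CPM in library 4, from 10 and 29 UMIs. Its relative Retnlg, a neutrophil marker, had 62669 UMIs in immune cells and 33 in epithelial-like cells, and the part of reads shared between the pair was not tested.

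Lyz1 was also counted in monocyte/macrophage-like cells, above its level in lymphoid cells. The 1323 cells held 2116 UMIs (117.5 CPM), against 1.38 CPM in T/NK-like and 1.48 CPM in B-like cells. Of those UMIs, 81.8% came from 35 barcodes with 10 or more each, 30 of them in library 3, and without these the level was 22.4 CPM. The 35 barcodes held 6567 UMIs of Lyz2 and 340 of Spink4, and 64 of Reg4 and 0 of Mptx1. Spink4 was thus 19.7% of Lyz1 there and 169% of Lyz1 in the Lyz1-rich Spink4/Sval1 cells. In 10 barcodes of an unnamed cluster led by Ccl8 and Mrc1, 519 UMIs of Lyz1 came with 2088 of Lyz2, 3 of Spink4 and 0 of Reg4. Leaving out barcodes with 50 or more, Lyz1 was 1.99% of Lyz2 in macrophage-like cells of library 3 and 0.205% in library 4. That cut took out 6 barcodes in library 3 and 0 in library 4. With all barcodes the Lyz1 level in these cells was 304 CPM in library 3 and 22.5 CPM in library 4. Leaving out barcodes with 10 or more, it was 33.0 and 17.5 CPM, so most of the gap lay in the rich barcodes of library 3. The source of these counts, the close copy included, was not tested.

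Saa3, the acute-phase relative of Saa1 made by macrophages and fat tissue, was counted mostly in clusters led by myeloid genes. An unnamed cluster of 906 cells led by the macrophage genes Arg1, Ccl24 and Inhba held 3537 of its 6108 UMIs, at 315 CPM, and 39 of its barcodes, 33 of them in library 4, held 95.1% of those. A cluster of 452 cells led by Chil3 and F13a1 held 133 CPM (607 UMIs), that led by Ccl8 and Mrc1 62.9 CPM (397 UMIs), neutrophil-like cells 54.4 CPM (475 UMIs) and monocyte/macrophage-like cells 42.9 CPM (773 UMIs, of which 327 in 1 barcode). A stromal cluster of 84 cells, with fibroblast and endothelial markers, reached 634 CPM from 216 UMIs, of which 150 lay in 1 barcode, and 198 CPM without it. The 13 Saa3 UMIs of epithelial-like cells lay in 13 cells, and at 0.826 CPM were under the 1.75 CPM of T/NK-like cells. In the 39 rich barcodes Saa3 came with 1 UMI of Saa1, so the neighbours were not counted together there. Saa2, the near copy of Saa1, had 5 UMIs in epithelial-like and 0 in immune cells.

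The genes around them were taken from 7 lists of 72 genes in the matrix (lectins and kin, lysozyme and pentraxin kin, peptides, mucus, oxidant enzymes, receptors, cytokines). Of the 63 with at least 10 UMIs, 28 stood 2-fold or more above their immune level in epithelial-like cells, 29 stood as far below it and 6 lay in between, beside 38.4% and 21.1% of all genes. All 7 mucus genes and all 5 oxidant genes were higher, among them Muc2 (573 against 0.884 CPM), Agr2, which folds mucins (1414 against 3.89 CPM), Spink4 (6465 against 19.1 CPM), Duoxa2, which matures the peroxide-making DUOX2 (75.9 against 0.237 CPM), Duox2 itself (63.4 against 0.290 CPM) and Noxo1, an organiser of NADPH oxidase (74.7 against 1.03 CPM). Of 14 peptide genes counted 8 were higher, such as the defensin-processing Mmp7 (947 against 1.45 CPM) and Wfdc2 (208 against 0.356 CPM), and 5 lower, such as the cathelicidin gene Camp (0 epithelial and 2741 immune UMIs). Of 4 lectin and kin genes 3 were higher, among them Itln1, which binds microbial sugars (428 against 1.24 CPM), and Reg1 (22 epithelial and 0 immune UMIs), and the neutrophil gene Retnlg was lower (2.10 against 827 CPM). Among lysozyme, pentraxin and acute-phase kin Mptx2 was higher (163 against 0.277 CPM), and Lyz2 (29.7 against 2484 CPM) and the haptoglobin gene Hp (1.72 against 129 CPM) were lower. Reg3a had 2 epithelial UMIs.

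Of 11 cytokine genes 10 were lower in epithelial-like cells (90.9%, beside 21.1% of all genes): Il22 had 1808 UMIs in immune and 0 in epithelial-like cells, Il17f 1720 and 0, and Il17a 8611 and 1. The exception was Il18, 6.17-fold higher (57.5 against 9.31 CPM). Most receptor and signalling genes also lay on the immune side: of 18, 11 were lower (61.1%) and 3 higher (16.7%, under the 38.4% of all genes). The 3 were Il22ra1, the IL-22 receptor chain, with 26 epithelial and 0 immune UMIs, Osmr, the oncostatin M receptor (9.66 against 0.066 CPM), and Il17rc, an IL-17 receptor chain (19.5 against 0.369 CPM). For the subsets that follow, the 72 genes include some with too few epithelial UMIs to be called, such as Camp and Il22. The background percents cover only genes with at least 10 UMIs in the subset or in the other cells, so the denominators differ. Within the epithelium, 11 of the 72 genes were higher and 24 lower in the Saa1-holding Emp1/Car4 cells than in other epithelial-like cells, beside 9.72% and 48.9% of all genes. Among the 11 were Duox2 (707 against 37.1 CPM), Duoxa2 (788 against 46.8 CPM), Osmr (69.6 against 7.21 CPM) and Il22ra1 (10 UMIs, 16.2 against 1.06 CPM). In Ubd/Ifit1bl1 cells, the other subset high in Saa1, 15 were higher and 23 lower (4.31% and 62.3% of all genes), among them Duoxa2 (666 against 66.2 CPM) and Wfdc2 (1756 against 183 CPM). The 12 Il1b/Ccl4 cells held 13 higher and 27 lower (3.37% and 38.8%), among them Lyz2 (2963 against 6.34 CPM). The Spink4/Sval1 cells held 15 higher and 21 lower (6.16% and 27.5%), among them Defa17, a defensin (599 against 0.589 CPM), Mmp7 (5389 against 248 CPM) and Muc2 (3981 against 37.2 CPM).

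Over 19 sums of epithelial subset by library, the 3 genes most like each gene were found by Pearson correlation of log2(CPM + 10) among 9951 genes, as a description over points that share cells and libraries. Reg4 was nearest to Hpd (0.97), Defa17 and Best2, and Retnlb to Spdef (0.97), a transcription factor of secretory cells, Defa17 and Best2. Lyz1 was nearest to Clps (0.96), Ang4 and Spink4, Mptx1 to Scgb1b7 (0.99), Meg3 and Cma1, and Zg16 to Spink1 (0.92), Fcgbp and Tff3. Spink4/Sval1 cells held from 98.1% (Reg4) to 99.8% (Mptx1) of the epithelial UMIs of Reg4, Retnlb, Lyz1 and Mptx1. Their values thus rest mainly on the few sums of that subset and do not show close co-variation across subsets. For Mptx1, 1 cell held 8617 of the 10587 UMIs of Spink4/Sval1 cells in library 1. Whether its nearest genes follow that cell was not tested. Lypd8 was nearest to AA467197 (0.96), Plac8 and Muc13, and Saa1 to Mall (0.96), Clca4b and Trim40. Reg3b had lower values, 0.76 with 2210407C18Rik, 0.76 with Reg3g of the same set and 0.69 with Heph, and Reg3g was nearest to Scgb2b20 (0.82), F13a1 and Ccl6. Saa3 had too few epithelial UMIs to be compared.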

How the data were processed

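Libraries were made with the Chromium 3′ chemistry, version V3, per the labels' protocols. The values used are UMI counts that the authors made with Cell Ranger 3.0.2 on mm10, per the submitters' processing notes, and deposited unscaled. Which annotation release served for counting is not given; gene positions are from GENCODE vM21.

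The 10 genes, the gene lists and the alternatives were chosen with earlier results of these data known. A barcode was kept with 200 or more genes, 500 or more UMIs and mitochondrial UMIs of 20% or less (14198 of 18026 barcodes). Scrublet called 10 doublets (0.0704%), so the caller had not worked; its calls were dropped all the same. Cells were clustered in scanpy 1.11.5 (2000 variable genes, 30 components, 15 neighbours, Leiden resolution 1, igraph 0.11.9) without the 10 genes, the pathway lists, ribosomal, mitochondrial, haemoglobin, immunoglobulin, T cell receptor, Y-linked and Xist genes, and epithelial-like cells were clustered again in the same way. A cluster was named from fixed markers at a log2 score of at least 1.5, a lead of 1 and 3 detected markers; a subset needed 2. After clusters were seen, the erythroid list was kept from competing with an epithelial score of 1.5 or more. Clusters without a name entered no class. The classes are rebuilt here and are not the authors'.

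CPM is the gene's summed count over all UMIs of the same cells. Intervals are 95%, Poisson for CPM, binomial for shares and ratios (scipy 1.17.1), and cover counting error only. Shares were also taken after thinning cells to 1000 UMIs, which left 1288 epithelial-like and 9457 immune cells. At 0 UMIs the limit is that of 3 counts. With 1 matrix of unassigned libraries no test was made. The ratio and thinning steps were tested on simulated data. Genes named beside the 10 are the leading 3 of a cluster, the nearest 3 by correlation, the 3 of each list with the largest absolute log2 ratio, and near copies; Il18, Ptprc, the reference genes printed and the genes listed for single barcodes were named after their values were seen. The median depth of kept cells was 4507, 3379, 4928 and 5176 UMIs in libraries 1 to 4.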

Additional observations from a re-analysis of the deposited data

Results flagged for a closer look

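Signal of all 10 genes was seen in barcodes that failed the cell filter, which no comparison above uses. These 3828 barcodes held 7955653 UMIs, and each gene lay above the level that 3 counts allow. Lypd8 stood at 708 CPM, Lyz1 at 420.5 CPM, Saa1 at 227 CPM and Zg16 at 111 CPM. Reg4 stood at 69.3 CPM, Reg3g at 57.6 CPM and Mptx1 at 25.1 CPM. Reg3b stood at 16.2 CPM, Retnlb at 11.7 CPM and Saa3 at 8.80 CPM. Summed over the libraries, Saa1, Zg16 and Saa3 were above their levels in kept epithelial-like cells (136, 96.6 and 0.826 CPM), and the other 7 genes below. The removed barcodes were not divided by cell type, so a mix of unknown make-up is set beside epithelial-like cells alone. Saa3 stood at 17.4 CPM in kept immune cells, and at 29.1 and 64.9 CPM in removed barcodes of libraries 3 and 4. By library the direction was mixed for Zg16 and Saa1. It was also mixed for Reg4, Lyz1, Mptx1 and Retnlb, which lay below in libraries 1 and 2. In library 3 Lyz1 stood at 32.9, Mptx1 at 23.2, Reg4 at 7.75 and Retnlb at 3.87 CPM, against 0 UMIs in 12 epithelial-like cells. In library 4 Lyz1 stood at 8.77 against 6.35 CPM and Retnlb at 3.51 CPM against 0 UMIs. Each of these levels rests on 2 to 17 UMIs. Zg16 stood at 212 against 88.0 CPM in library 1 and 138.5 against 31.8 CPM in library 4, but at 46.8 against 101 CPM in library 2 and 65.9 against 268 CPM in library 3. Saa1 was above in libraries 1 and 2 (507 against 333 and 98.9 against 52.8 CPM) and below in libraries 3 and 4 (15.5 against 201 and 8.77 against 206 CPM).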

How the results depend on the processing

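The number of genes at least 2-fold higher in epithelial-like than in immune cells was 9 under all 19 alternatives, 6 of them chosen after seeing the data, as was the number higher in at least 1 subset. In goblet- and Paneth-type cells together it was 7, and 6 without library 2. The alternative without each gene's richest epithelial-like cell took out a Gsdmc4/Muc3 cell for Reg3b. Without its richest Spink4/Sval1 cell, which was none of the alternatives, Reg3b stood at 197 against 104.9 CPM, under the 2-fold limit. The median immune level, 0.521%, was 0.705% with cells thinned to 1000 UMIs, 1.17% with 1 CPM added to both levels and 0.337% without immune barcodes of 10 or more UMIs (chosen after seeing the data); leaving out 1 library gave 0.459 to 0.764%, the last without library 1. The cause was not tested beyond what each alternative removes. No gene's ratio of epithelial-like to immune level changed direction under these alternatives; directions between epithelial subsets were recomputed only as the counts above. Over genes and alternatives, 104 epithelial-like levels moved by more than counting error and 86 did not. Without library 1 the epithelial level of Mptx1 was 57.5 CPM and that of Saa1 51.8 CPM, and without library 2 Mptx1 stood at 1865 CPM. Saa1 reached 628 CPM with cells weighted alike. The split of Ang4/Defa24 from Nov/Klk1 cells was not formed at resolution 0.5 or without library 1 or 2. With at most 10% mitochondrial UMIs, Lyz1 and Zg16 were not divided in all subsets. There 46 shallow cells led by Defa30 and Defa22 (median 1318.5 UMIs) scored 4.53 for Paneth-type and 1.98 for goblet markers. They held Lyz1 at 38802 CPM and Zg16 at 10250 CPM (2290 UMIs). In the same setting Nov/Klk1 cells held Zg16 at 1660 CPM and 79 Cma1/Ang4 cells at 17.2 CPM. No paired analysis was possible because no barcode suffix is paired with a labelled sample and no test was made. Libraries 3 and 4 held 12 and 28 epithelial-like cells, which limits what their depth can show.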
